A study of Mus musculus with 58 samples.

Results

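The genes of sterol and fatty acid synthesis were examined in the brains of 58 mice. They form a list of 37 genes chosen for their known roles in making cholesterol and fatty acids and in the control of these pathways. The list was chosen with earlier results of these data known. All 37 were found by symbol among the 15171 genes counted. By role they comprised 7 genes of the mevalonate steps, 11 of the squalene and sterol steps, 5 regulators, 3 genes of sterol transport, esterification and hydroxylation, 5 of fatty acid synthesis, and 6 of desaturation and elongation.

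All mice carried a targeted replacement of mouse *Apoe* by human *APOE3* or *APOE4* (both copies) on the C57BL/6 background, and either 2 copies of *Abca1* (Abca1+/+) or 1 copy (Abca1+/-). At 3 months of age they received a craniotomy over the left parietal cortex with a single controlled cortical impact (TBI) or a craniotomy with no impact (sham). Hippocampus and cortex of a slice through the site of surgery were frozen together 14 days later, and their RNA was sequenced. The groups were E3/Abca1+/+ sham (n = 8) and TBI (n = 8), E3/Abca1+/- sham (n = 7) and TBI (n = 6), E4/Abca1+/+ sham (n = 7) and TBI (n = 7), and E4/Abca1+/- sham (n = 7) and TBI (n = 8), each with mice of both sexes. The replaced *APOE* gene and the missing *Abca1* copy were present in every cell of the animal from conception, so that neither was limited to the adult or to a cell type.

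Total counts were 4421308 to 37877346 per mouse. Median totals were 18871446 for the Abca1+/- and 8350020 for the Abca1+/+ mice, a ratio of 2.26, so that *Abca1* copies and sequencing depth cannot be told apart. No member lay on chromosome 4, which carries *Abca1*. The tissue held neuronal, astrocyte, oligodendrocyte and microglial marker RNA in every mouse. Because it was bulk tissue, fewer cells of a type and less RNA per cell cannot be told apart.

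Cells build cholesterol from acetyl-CoA through mevalonate and squalene, and build fatty acids from the same precursor. When sterol in the endoplasmic reticulum is low, the chaperone SCAP carries the transcription factors SREBP-2 (encoded by *Srebf2*) and SREBP-1 (encoded by *Srebf1*) to the Golgi, where they are cut and released to the nucleus; when sterol is high, INSIG proteins hold SCAP back. Oxysterols activate the LXR receptors, which raise *Srebf1* and genes of cholesterol export. Because the blood-brain barrier keeps out plasma lipoproteins, the brain makes its own cholesterol, in the adult mostly in glia, and cannot degrade the ring.

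Sequences before the start sites were read for 30 of the 37 members from RefSeq (GRCm38.p6), as windows from 250 bases before to 50 bases after each annotated start. Both strands were searched for the core of the sterol response element (TCACNCCAC), to which SREBP binds, for the CCAAT box (CCAAT), to which NF-Y binds, and for the GC box (GGGCGG), to which Sp1 binds, and no hit in these windows overlapped a hit of another motif. The sequences shown here belong to members that moved after injury, 4 that fell (the gene with a sterol response element core, a sterol oxidase, the member that fell most and the regulator with the smallest p-value) and 1 that rose. Capitals mark a sterol response element core or a CCAAT box on either strand (CCAAT reads ATTGG on the other strand), and each sequence is the 250 bases before the start, 5′ to 3′ on the gene's strand.
Hmgcs1, chr13:119690101-119690350, plus strand: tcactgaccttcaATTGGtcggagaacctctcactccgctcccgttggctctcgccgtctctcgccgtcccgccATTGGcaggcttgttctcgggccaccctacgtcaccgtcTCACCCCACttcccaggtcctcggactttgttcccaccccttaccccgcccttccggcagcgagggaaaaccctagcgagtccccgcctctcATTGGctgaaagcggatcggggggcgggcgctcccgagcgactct
Msmo1, chr8:64733579-64733828, minus strand: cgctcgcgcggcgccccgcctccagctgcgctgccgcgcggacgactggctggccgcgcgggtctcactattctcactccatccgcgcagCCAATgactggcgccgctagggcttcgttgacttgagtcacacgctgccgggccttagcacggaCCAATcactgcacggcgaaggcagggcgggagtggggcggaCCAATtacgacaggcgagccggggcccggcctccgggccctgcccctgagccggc
Idi1, chr13:8885356-8885605, plus strand: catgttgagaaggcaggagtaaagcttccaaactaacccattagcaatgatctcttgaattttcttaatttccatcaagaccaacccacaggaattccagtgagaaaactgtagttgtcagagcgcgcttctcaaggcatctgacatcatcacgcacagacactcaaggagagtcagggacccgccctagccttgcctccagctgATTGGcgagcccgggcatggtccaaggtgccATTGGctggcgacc
Srebf2, chr15:82147019-82147268, plus strand: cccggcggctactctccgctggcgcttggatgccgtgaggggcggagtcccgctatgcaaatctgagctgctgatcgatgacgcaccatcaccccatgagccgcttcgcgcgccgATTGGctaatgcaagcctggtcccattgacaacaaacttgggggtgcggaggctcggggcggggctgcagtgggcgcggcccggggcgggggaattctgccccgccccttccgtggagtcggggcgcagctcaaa
Soat1, chr1:156474329-156474578, minus strand: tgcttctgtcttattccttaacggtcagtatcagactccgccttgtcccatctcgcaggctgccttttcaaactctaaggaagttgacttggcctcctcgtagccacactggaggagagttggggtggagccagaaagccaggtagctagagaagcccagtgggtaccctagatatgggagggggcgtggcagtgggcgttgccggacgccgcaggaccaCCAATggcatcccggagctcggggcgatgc

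*Hmgcs1* was the single member with the 9-letter sterol response element core in its window, which 1.36% of the genes in the count table with a RefSeq window also held. A CCAAT box was found in 25 of the 30 members (83.3%) and in 42.3% of those 11751 genes. *Msmo1* had 3 CCAAT boxes in the 250 bases shown, *Hmgcs1* 3 and *Idi1* 2. *Srebf2* and *Soat1* had 1 each. A GC box was found in 25 of the 30 members and in 66.6% of the genes. The windows of 19 of the 22 members that were lower after TBI and of 4 of the 5 that were higher held a CCAAT box, in *Acly* at a single place after the start. These matches are letters in a window and were not tested for binding.

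The 37 genes covered a wide range of levels in sham mice. Per kilobase of exon, *Scd2*, a stearoyl-CoA desaturase that makes oleate, had the highest level, 263 ± 14.5 CPM per kb (SD, n = 29; CPM, counts scaled to a common library total). *Cyp46a1*, the neuronal enzyme that turns cholesterol into 24S-hydroxycholesterol for export from the brain, followed with 102 ± 7.92 and *Hmgcs1*, which makes HMG-CoA, with 88.5 ± 10.6. *Srebf2* (49.9 ± 3.42), *Acly* (48.2 ± 1.76), *Msmo1* (45.8 ± 5.85) and *Scd1* (43.8 ± 4.88) came after *Fads1* (70.3 ± 3.22), and of these 4 each differed from the next by less than the larger of their SDs. *Soat1*, which esterifies cholesterol for storage, had 3.39 ± 0.417, and *Idi1*, the isomerase of isopentenyl diphosphate, the lowest with 1.67 ± 0.311. *Srebf2* was measured at a higher level per kilobase than *Srebf1* (13.1 ± 1.73).

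**Figure D1:**
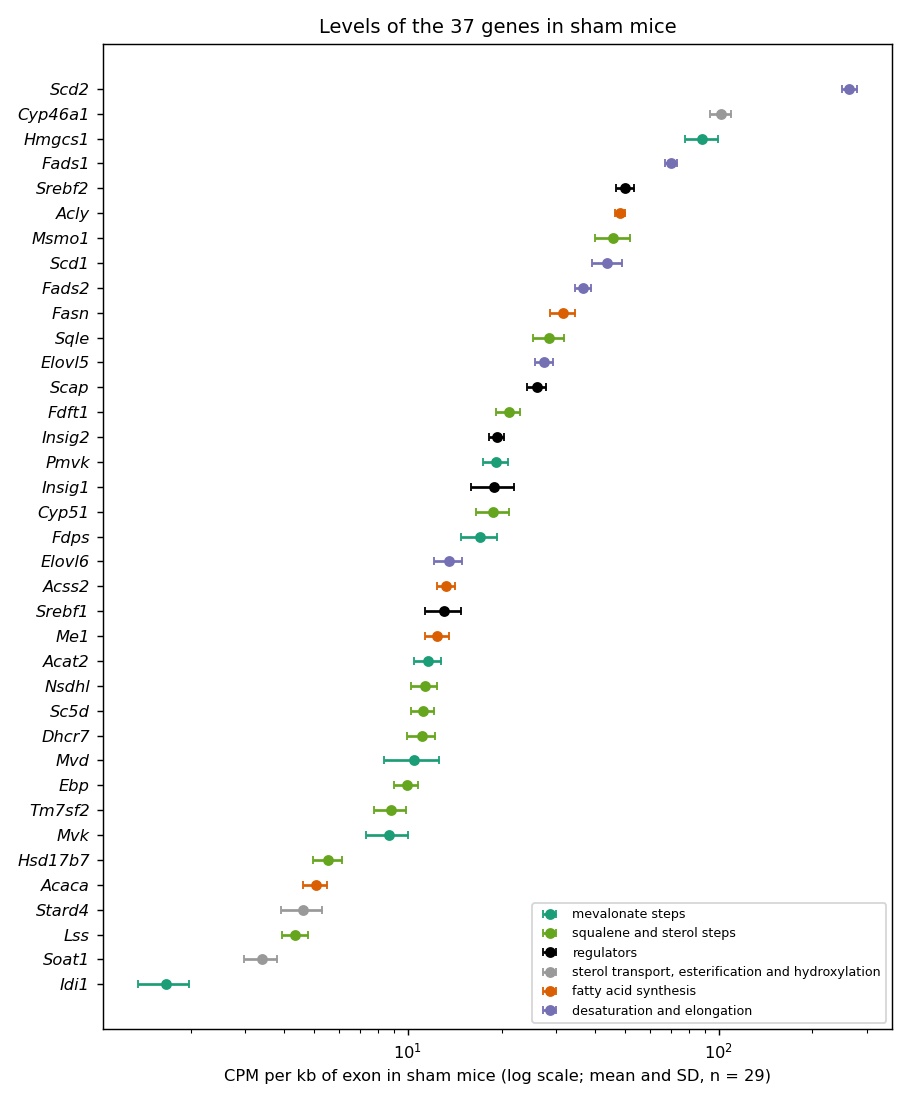
Level of each of the 37 genes in sham mice in CPM per kilobase of exon on a log axis, as mean and SD over 29 mice, coloured by role. *Scd2* stands highest at 263 and *Idi1* lowest at 1.67.

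TBI was compared with sham to see how the injury changed these genes 14 days later. Averaged over the 4 genotypes, 26 of the 37 members were lower after TBI, against 24.3% of all 15171 genes, and 5 were higher, against 29% of all genes (quasi-likelihood test of edgeR, called at a Benjamini-Hochberg adjusted p below 0.05 over all genes). The median log2 fold change of the members was -0.13, and that of all genes was 0.01. All 7 mevalonate genes and 10 of the 11 genes of the squalene and sterol steps fell, with median log2 fold changes of -0.33 and -0.26. With all libraries thinned to the lowest total, *Mvk* (adjusted p = 0.225), *Pmvk* (0.136) and *Tm7sf2* (0.156) were no longer called. *Tm7sf2* was not called in females (0.0702) or males (0.159) alone either (edgeR). The 5 members that rose were *Srebf1*, *Soat1*, *Elovl5*, *Fads2* and *Me1*.

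The cell type markers moved with the injury as well. The summed level of 8 microglial markers was 351 to 556 CPM in the sham mice and 657 to 1485 in the TBI mice, all 8 markers being called higher. All 8 astrocyte markers were called higher, with sums of 5421 to 6988 CPM in sham mice and 6794 to 11049 in TBI mice. Of 8 neuronal markers 7 were called lower, with sums of 8232 to 9268 CPM in sham mice and 5858 to 8296 in TBI mice. Of 10 oligodendrocyte markers 3 were called higher and 2 lower, with sums of 2625 to 4140 and 2691 to 4507 CPM. Of the other lists, precursors of oligodendrocytes had 2 of 4 markers called higher, endothelium 3 of 4, meninges and fibroblasts 3 of 3, lymphocytes and monocytes both of those counted, and thalamus both of its markers. Hippocampal markers had 1 of 7 higher and 2 lower, and markers of cortical layers 5 of 6 lower. No marker of choroid plexus or striatum was called. The part of these shifts in the changes of the members was not tested.

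Among the regulators, *Srebf2* had the smallest p-value of the 37 members. Its level was 212 CPM in the lowest, 259 in the median and 283 in the highest of the 29 sham mice, and 156, 188 and 233 CPM in the 29 TBI mice. Every TBI mouse lay below the median of the sham mice and 24 of 29 lay below the lowest sham mouse. Within each genotype, no TBI mouse overlapped a sham mouse, which held for no other member in all 4 genotypes. The log2 fold change was -0.40 (standard error 0.03, adjusted p = 3.87e-19, edgeR), a level 24.3% lower.

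*Srebf1*, the other SREBP gene, moved in the opposite direction. Its sham mice ranged from 41 to 69.3 CPM with a median of 58.6, and its TBI mice from 63.3 to 146 with a median of 101. Of the 29 TBI mice 28 exceeded the highest sham mouse. The log2 fold change was 0.82 (standard error 0.06, adjusted p = 9.35e-17, edgeR), a 1.77-fold higher level and the largest rise among the members. Fitted by genotype, it was lowest among the E3/Abca1+/- mice (0.67), followed by E4/Abca1+/+ (0.75), E3/Abca1+/+ (0.80) and E4/Abca1+/- (1.03), and the interactions of injury with isoform (log2 difference 0.16, standard error 0.13, adjusted p = 1.0) and with *Abca1* copies (0.08, standard error 0.13, adjusted p = 1.0) were not past the threshold (edgeR).

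*Insig1*, which retains SCAP when sterol is plentiful and is itself a SREBP target, fell by 0.46 on the log2 scale (standard error 0.06, adjusted p = 5.83e-09, edgeR), from a median of 48.6 CPM to 36.8 CPM. Its paralog *Insig2* fell by 0.08 (adjusted p = 0.000986). *Scap* was at a median of 112 CPM in sham and 108 CPM in TBI mice, which did not pass the threshold (log2 fold change -0.02, standard error 0.02, adjusted p = 0.565, edgeR).

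**Figure D2:**
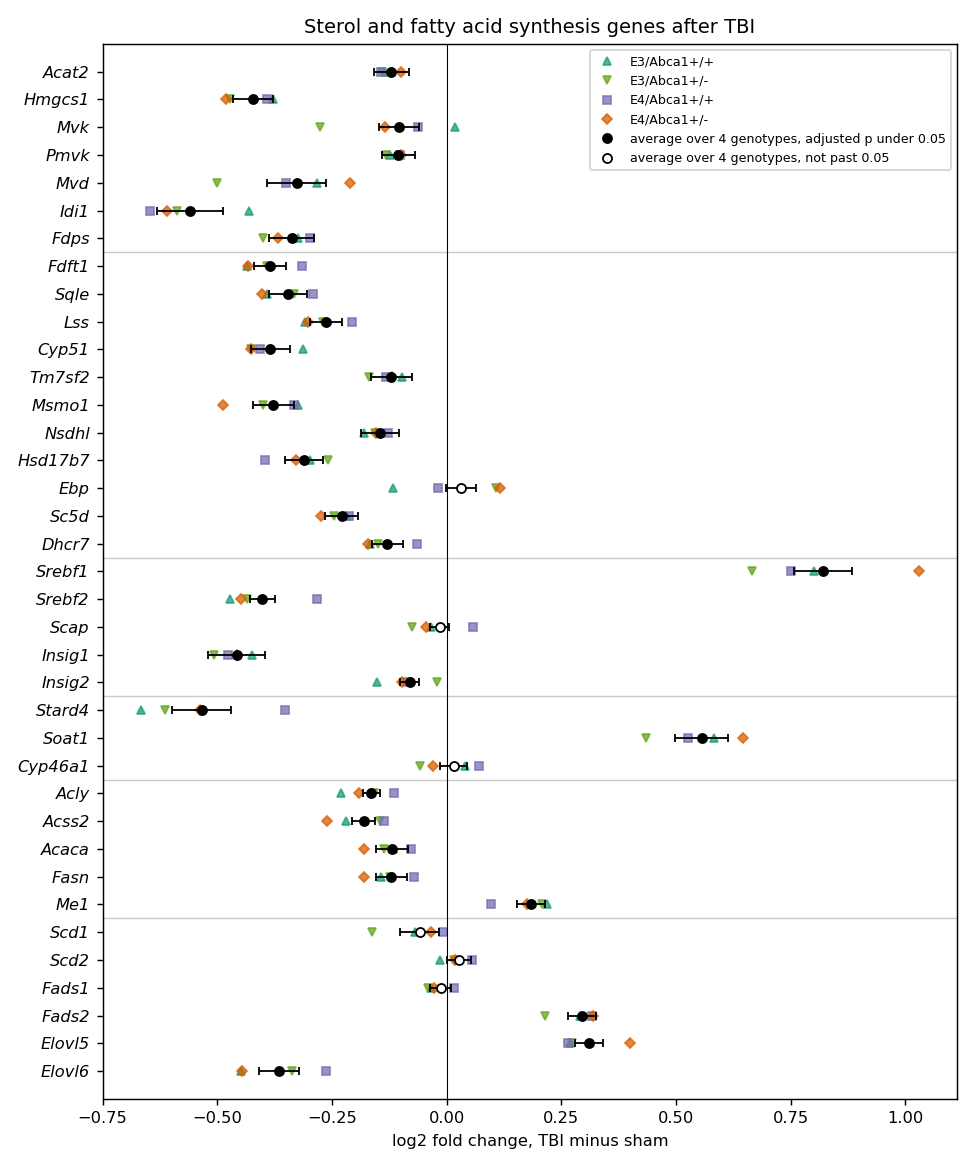
Log2 fold change between TBI and sham for each of the 37 genes, grouped by role with grey lines between roles. Circles are the average over the 4 genotypes with its standard error, filled where the adjusted p is under 0.05, and the other symbols are the separate fits of the 4 genotypes. Among the circles, the genes of the mevalonate and sterol steps lie left of 0 apart from *Ebp*, and *Srebf1* lies farthest right at 0.82. Of the separate fits, *Mvk* in E3/Abca1+/+ mice (0.02) also lies right of 0.

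Along the mevalonate steps, *Hmgcs1* had 243, 303 and 373 CPM in the lowest, median and highest sham mouse and 158, 234 and 285 CPM in TBI mice. All 29 TBI mice were below the sham median and 18 were below the lowest sham mouse. The log2 fold change was -0.42 (standard error 0.04, adjusted p = 2.27e-12, edgeR). *Idi1* fell the most of all members, by 0.56 on the log2 scale (standard error 0.07, adjusted p = 1.86e-09). It was a low gene, with 2.86, 5.12 and 7.0 CPM in sham mice and 2.18, 3.53 and 4.82 CPM in TBI mice, and only 4 TBI mice lay below the lowest sham mouse. *Fdps*, which makes farnesyl diphosphate, and *Mvd*, which decarboxylates mevalonate diphosphate, fell by 0.34 and 0.33, and *Acat2*, *Pmvk* and *Mvk* by 0.12, 0.11 and 0.10.

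Past farnesyl diphosphate, *Fdft1* encodes squalene synthase, the first enzyme committed to sterols. It had 65.1, 77 and 91 CPM in the lowest, median and highest sham mouse and 44.1, 60 and 74 CPM in TBI mice, with 25 of 29 TBI mice below the lowest sham mouse (log2 fold change -0.38, standard error 0.03, adjusted p = 2.74e-14, edgeR). In the annotation (GENCODE vM21) *Ctsb*, on the other strand, covers 20.9% of the exon bases of *Fdft1*. *Ctsb* rose by 0.67 on the log2 scale after TBI (adjusted p = 1.47e-15, edgeR). Whether the counting used strand is not given in the sources used here, so that reads of the shared bases may belong to either gene.

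*Sqle*, the squalene epoxidase, had 60.3, 80.4 and 95.9 CPM in sham mice and 44.9, 61.9 and 75.4 CPM in TBI mice, and fell by 0.35 (standard error 0.04, adjusted p = 2.85e-10, edgeR). *Cyp51*, the lanosterol demethylase, had 55.9, 74.4 and 90.1 CPM in sham mice and 41.4, 56.9 and 74.8 CPM in TBI mice, and fell by 0.38 (standard error 0.04, adjusted p = 3.78e-11). *Msmo1*, which oxidizes a methyl group of the sterol ring, had 61.4, 93.4 and 115 CPM in sham mice and 52.2, 71.5 and 92.5 CPM in TBI mice, and fell by 0.38 (standard error 0.05, adjusted p = 2.34e-10). For each of the 3 genes at least 28 of the 29 TBI mice lay below the sham median, but 3 to 11 lay below the lowest sham mouse, so the groups overlapped. *Hsd17b7*, *Lss* and *Sc5d* fell by 0.31, 0.26 and 0.23.

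Other members of the sterol steps had smaller changes. *Nsdhl* fell by 0.15, *Dhcr7*, which reduces 7-dehydrocholesterol to cholesterol, by 0.13 (adjusted p = 0.00113), and *Tm7sf2* by 0.12 (adjusted p = 0.0221, edgeR). *Ebp*, the sterol isomerase, was the exception and did not pass the threshold (log2 fold change 0.03, standard error 0.03, adjusted p = 0.552). Summed over the 18 genes of the mevalonate, squalene and sterol steps, sham mice held 776 to 1107 CPM and TBI mice 599 to 915 CPM, with medians of 939 and 770.

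Sterol handling split in direction. *Stard4*, a carrier of cholesterol between membranes that SREBP-2 is known to raise, had 19.1, 23.3 and 31.6 CPM in sham mice and 10.8, 16.5 and 26.1 CPM in TBI mice, with 21 of 29 TBI mice below the lowest sham mouse (log2 fold change -0.53, standard error 0.06, adjusted p = 2.19e-10, edgeR). *Soat1* rose from 21, 28.8 and 34 CPM in sham mice to 27.3, 40.7 and 61.3 CPM in TBI mice. Of the 29 TBI mice 25 exceeded the highest sham mouse (log2 fold change 0.56, standard error 0.06, adjusted p = 3.35e-12, edgeR). *Cyp46a1* had a median of 217 CPM in both, and its log2 fold change of 0.015 was not past the threshold (standard error 0.03, adjusted p = 0.698).

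**Figure D3:**
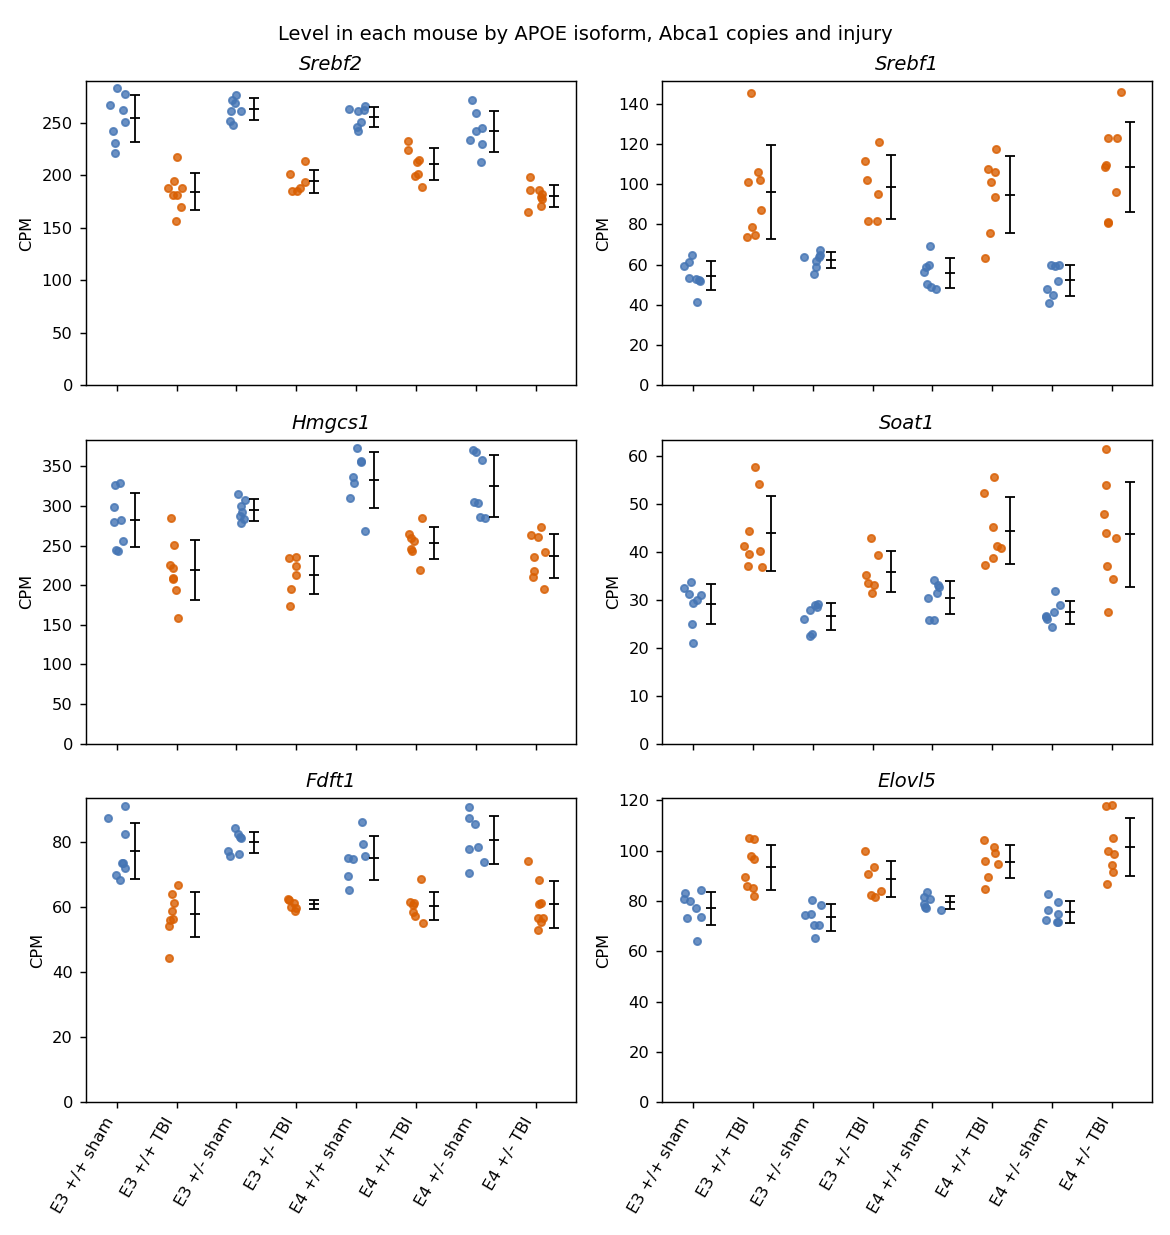
CPM of 6 of the genes in each mouse by *APOE* isoform, *Abca1* copies and injury, with sham mice in blue and TBI mice in orange; bars are mean and SD of each group of 6 to 8 mice. *Srebf2* of the TBI mice lies below that of the sham mice in every genotype, and 28 of 29 TBI mice lie above the highest sham mouse, 69.3 CPM, for *Srebf1*.

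In fatty acid synthesis the changes were small. *Acly*, which makes cytosolic acetyl-CoA from citrate, had 205, 223 and 242 CPM in sham mice and 163, 197 and 217 CPM in TBI mice, with 20 of 29 TBI mice below the lowest sham mouse, and fell by 0.16 (standard error 0.02, adjusted p = 4.44e-11, edgeR). *Acss2*, *Fasn* and *Acaca*, the last encoding the acetyl-CoA carboxylase that starts the chain, fell by 0.18, 0.12 and 0.12. *Me1*, the malic enzyme that supplies NADPH, rose by 0.18 (standard error 0.03, adjusted p = 1.39e-06, edgeR), with 28 of 29 TBI mice above the sham median.

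The genes of desaturation and elongation did not move together. *Elovl5*, the elongase of polyunsaturated fatty acids, had 64.2, 77.1 and 84.5 CPM in sham mice and 81.5, 94.5 and 118 CPM in TBI mice, and 25 of 29 TBI mice exceeded the highest sham mouse (log2 fold change 0.31, standard error 0.03, adjusted p = 5.66e-13, edgeR). *Fads2*, the delta-6 desaturase of the same pathway, had 104, 115 and 132 CPM in sham mice and 114, 144 and 167 CPM in TBI mice, with 21 above the highest sham mouse (log2 fold change 0.29, standard error 0.03, adjusted p = 2.84e-12). *Elovl6*, which extends saturated chains, went the other way, from 67, 83.2 and 97.5 CPM to 46.2, 66 and 79.4 CPM, and fell by 0.37 (standard error 0.04, adjusted p = 1.46e-10). *Scd1*, *Scd2* and *Fads1* had log2 fold changes of -0.06, 0.03 and -0.01 and were not past the threshold (adjusted p = 0.251, 0.404 and 0.668, edgeR).

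Each genotype was also fitted on its own mice. In E3/Abca1+/- mice 18 members were lower, against 10% of all genes, and 5 higher, against 13.4%. In E3/Abca1+/+ mice 16 were lower, against 10.9%, and 5 higher, against 12.3%. In E4/Abca1+/- mice 18 were lower, against 16.4%, and 5 higher, against 17.7%, and in E4/Abca1+/+ mice 14 were lower, against 4.87%, and 4 higher, against 8.82%.

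Of the 37 members 13 were lower in each of the 4 genotypes, which held for 2.85% of all genes. They were *Srebf2*, *Insig1*, *Hmgcs1*, *Fdps*, *Fdft1*, *Sqle*, *Cyp51*, *Msmo1*, *Hsd17b7*, *Sc5d*, *Stard4*, *Acly* and *Elovl6*, and 9 of these 13 belong to sterol synthesis or its regulator *Srebf2*. The members higher in each of the 4 genotypes were *Srebf1*, *Soat1*, *Fads2* and *Elovl5*, and 6.26% of all genes were higher in each. *Idi1* missed the threshold in E3/Abca1+/+ mice alone, with a log2 fold change of -0.43 there (adjusted p = 0.0713, edgeR). The exons of *Fdps* lie to 77.4% under another annotated gene on its strand, Gm43738, so that its counts are uncertain in every comparison. Genes annotated on the opposite strand, not among the genes counted, cover 18.6% of the exon bases of *Scap*, 16% of *Hmgcs1* and 10.7% of *Idi1*. Reads of these shared bases may belong to either gene as well.

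Complete separation of TBI from sham mice was counted in the same way. It was found for 15 members in E3/Abca1+/- mice, against 9.96% of all genes, for 6 in E3/Abca1+/+, against 6.39%, for 10 in E4/Abca1+/-, against 9.75%, and for 5 in E4/Abca1+/+ mice, against 4.52%. In E4/Abca1+/+ mice the 5 were *Srebf2*, *Msmo1*, *Hsd17b7*, *Soat1* and *Elovl5*.

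Other genes of these pathways that are not members were taken from a list of 53, of which 52 were counted. After TBI 12 were lower, or 23.1% against 24.3% of all genes, and 23 were higher, or 44.2% against 29% of all genes (averaged over genotypes, edgeR). Among the lower genes were *Elovl4*, an elongase of very long chains (log2 fold change -0.23), *Tecr*, which completes each elongation cycle (-0.22), and *Acsl5*, which activates fatty acids (-0.19). The higher genes with the smallest p-values were *Abca1*, the cholesterol exporter (log2 fold change 1.77), *Npc2*, which carries cholesterol out of lysosomes (0.92), *Ch25h*, which makes the oxysterol 25-hydroxycholesterol (2.27), *Hacd2* (0.32) and *Mylip*, an LXR-induced ligase that degrades the LDL receptor (0.52). *Ch25h* was low, with a median of 0.527 CPM in sham and 2.3 CPM in TBI mice.

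The members' levels also varied among mice of the same group. With each group's mean removed, the median Pearson correlation over the 153 pairs of the 18 sterol synthesis genes was 0.35 across the 58 mice (range -0.30 to 0.85), against 0.00 for these genes paired with every gene of the table. The 55 pairs of fatty acid genes had a median of 0.20. *Msmo1* and *Hmgcs1* followed the other sterol synthesis genes most closely, with median correlations of 0.60 and 0.59. *Insig1* (0.48) and *Stard4* (0.41) followed them too, and *Srebf2* less (0.28). Of the 18 genes themselves, *Pmvk* (0.06), *Tm7sf2* (0.04) and *Ebp* (-0.15) did not follow the others. Nor did *Srebf1* (-0.11) and *Soat1* (-0.14). The values share libraries and depth and are given as a description.

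*APOE4* was compared with *APOE3*, averaged over injury and *Abca1* copies. Of the 37 members 3 were higher, against 8.03% of all genes, and 3 lower, against 6.99%, with a median log2 fold change of 0.00 among the members and 0.00 among all genes. *Hmgcs1* was the highest, at 158, 251 and 329 CPM in the lowest, median and highest of the 29 *APOE3* mice and 195, 273 and 373 CPM in the 29 *APOE4* mice (log2 fold change 0.19, standard error 0.04, adjusted p = 0.00168, edgeR). *Scd1* had 154, 202 and 234 CPM in *APOE3* and 151, 217 and 289 CPM in *APOE4* mice (0.13, standard error 0.04, adjusted p = 0.0249) and *Insig2* had 47.8, 54 and 62.3 CPM against 49.7, 57.1 and 61.5 CPM (0.06, standard error 0.02, adjusted p = 0.0364). The isoforms overlapped for each gene, in ranges that pool sham and TBI mice. Of 10 oligodendrocyte markers 6 were called higher in *APOE4* mice, and their part in these values was not tested.

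Lower in *APOE4* were *Mvk*, the mevalonate kinase (-0.14, standard error 0.04, adjusted p = 0.0167), *Scap* (-0.08, standard error 0.02, adjusted p = 0.00751) and *Acss2*, an acetyl-CoA synthetase (-0.085, standard error 0.02, adjusted p = 0.0135; all edgeR). In the lowest, median and highest mouse *Mvk* had 11.4, 17.8 and 23 CPM in *APOE3* and 13, 16.3 and 18.4 CPM in *APOE4* mice. *Scap* had 96, 113 and 120 CPM against 94, 105 and 125 CPM, and *Acss2* had 41.6, 48.9 and 55.9 CPM against 37.9, 47.2 and 55.6 CPM, so that the isoforms overlapped here too. None of the 11 genes of the squalene and sterol steps was called. With all libraries thinned to the lowest total, *Hmgcs1*, *Scd1* and *Scap* were called. *Insig2* (0.06, adjusted p = 0.187), *Mvk* (-0.16, adjusted p = 0.0736) and *Acss2* (-0.08, adjusted p = 0.0955) kept log2 fold changes of about the same size without passing the threshold (edgeR).

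In single settings few members were called between isoforms. In Abca1+/- sham mice, where 5.27% of genes were called, *Mvk* (-0.28, adjusted p = 0.0341) and *Scap* (-0.14, adjusted p = 0.04) were lower in *APOE4* (edgeR). Both calls were lost without the E4/Abca1+/- sham library that had the highest microglial marker sum, 556 CPM. In Abca1+/- TBI mice *Acss2* was lower (-0.17, adjusted p = 0.046, edgeR), against 2.87% of genes called. With 2 *Abca1* copies 0 members were called, with 4 members in sham and 6 in TBI mice at an unadjusted p under 0.05, and DESeq2 called 0 as well. There 0.346% of all genes were called in sham mice and 0.207% in TBI mice. *Hmgcs1* was higher in *APOE4* in both, by 0.23 and 0.21 on the log2 scale, without passing the threshold (adjusted p = 0.259 and 0.664, edgeR).

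**Figure D4:**
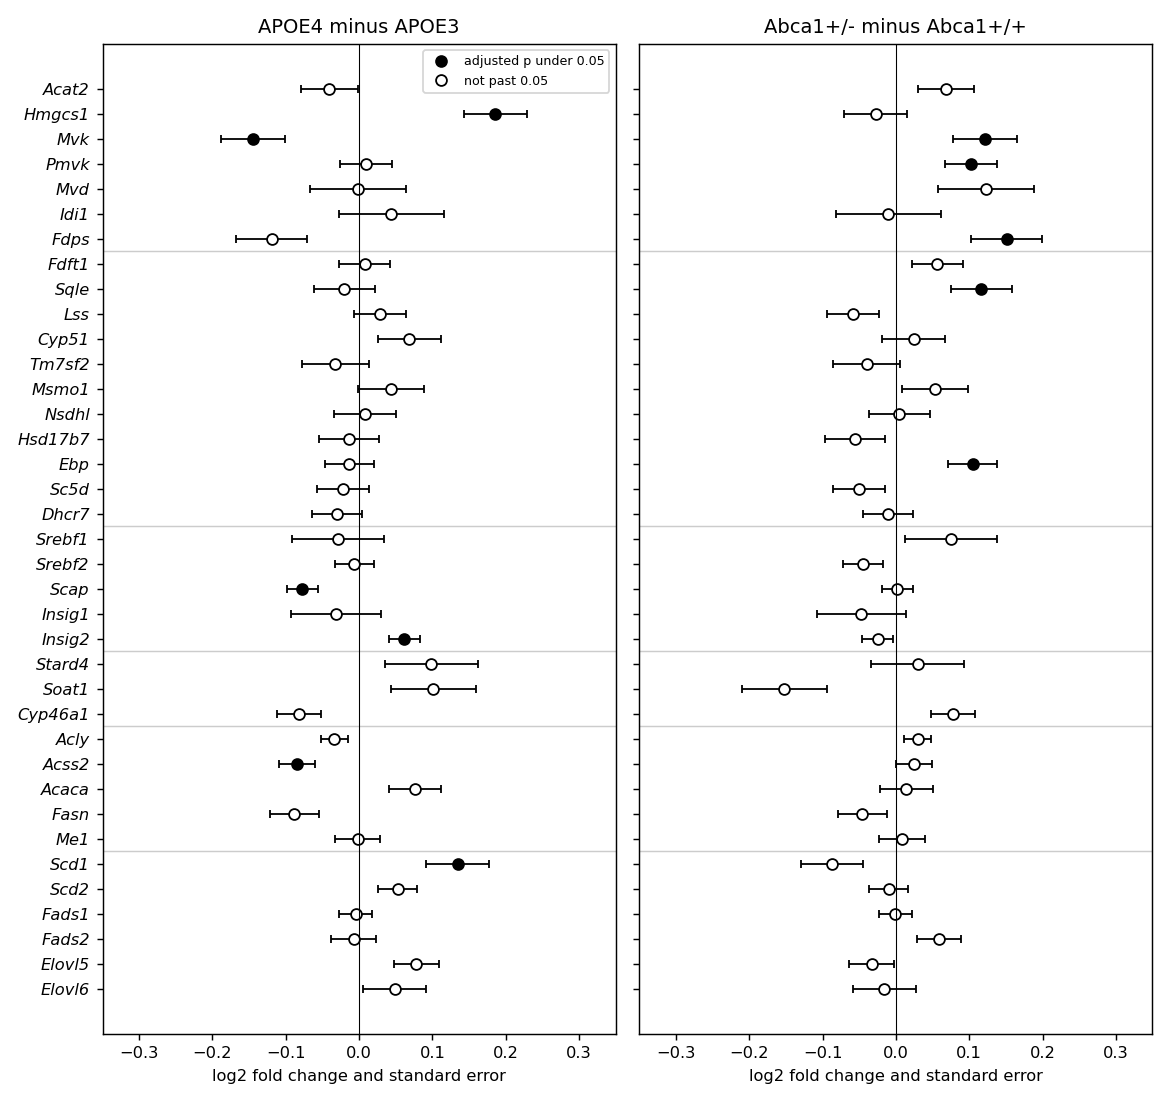
Log2 fold change and standard error of each of the 37 genes for *APOE4* minus *APOE3* (left) and Abca1+/- minus Abca1+/+ (right), averaged over the other factors; filled circles have an adjusted p under 0.05. The values run from about -0.15 to 0.19, and the 5 filled points on the right are *Mvk*, *Pmvk*, *Fdps*, *Sqle* and *Ebp*.

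Abca1+/- mice were compared with Abca1+/+ mice, averaged over isoform and injury. *Abca1* itself had 28.9 to 42.4 CPM in the Abca1+/- sham mice and 33.3 to 60.8 CPM in the Abca1+/+ sham mice (log2 fold change -0.42 over all groups, standard error 0.09, adjusted p = 0.000816, edgeR). Of the members 5 were higher, against 9.49% of all genes, and 0 lower, against 8.39%, with 8 at an unadjusted p under 0.05 in either direction. DESeq2 called 5 higher and 1 lower, *Soat1* (log2 fold change -0.16, adjusted p = 0.0422). Markers moved between these groups too, with 3 of 8 microglial and 1 of 4 oligodendrocyte precursor markers called higher in Abca1+/- mice, and 3 of 4 endothelial, 2 of 8 astrocyte, 1 of 6 cortical layer and 1 of 2 thalamic markers called lower. The part of these markers in the values of the members was not tested.

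The higher members were *Fdps* (log2 fold change 0.15, standard error 0.05), *Mvk* (0.12, 0.04), *Sqle* (0.12, 0.04), *Ebp* (0.11, 0.03) and *Pmvk* (0.10, 0.04), with adjusted p-values of 0.0215 to 0.0419 (edgeR). In the lowest, median and highest mouse *Fdps* had 14.2, 20.5 and 27 CPM in Abca1+/+ and 14.7, 23.5 and 31.5 CPM in Abca1+/- mice. *Sqle* had 44.9, 63.9 and 87.4 CPM against 55.4, 72.4 and 95.9 CPM, and *Mvk* 11.4, 16.1 and 19.05 CPM against 13, 17.5 and 23 CPM. *Ebp* had medians of 16.9 and 17.9 CPM and *Pmvk* of 30.8 and 32.5 CPM. The groups overlapped for each, in ranges that pool sham and TBI mice. The Abca1+/- libraries were the deeper ones, and with all libraries thinned to the lowest total *Sqle* alone of the 5 remained called (0.13, adjusted p = 0.0405). The log2 fold changes of the others after thinning were 0.12 for *Fdps*, 0.12 for *Mvk*, 0.06 for *Ebp* and 0.06 for *Pmvk*, against 0.15, 0.12, 0.11 and 0.10 with all counts. *Soat1* was then called lower (-0.16, adjusted p = 0.0497, edgeR). Thinning used a single random draw, and calls this near the threshold were not checked in other draws. Without the E4/Abca1+/- TBI library with the lowest hippocampal marker sum, 305 CPM, *Mvk* was not called (adjusted p = 0.0543).

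Within single settings, *Mvk* was higher in Abca1+/- than in Abca1+/+ *APOE3* sham mice (0.32, standard error 0.08, adjusted p = 0.0441, edgeR), with 19.07, 20.3 and 23 CPM in the lowest, median and highest Abca1+/- mouse and 11.4, 16.5 and 19.05 CPM in the Abca1+/+ mice, where 2.51% of genes were called. The call was lost with DESeq2's size factors, without a filter and after thinning. *Srebf2* was lower in Abca1+/- than in Abca1+/+ *APOE4* TBI mice (-0.24, standard error 0.05, adjusted p = 0.0398, edgeR), with 165, 181 and 199 CPM against 189, 212 and 233 CPM, where 1.47% of genes were called. After thinning it was not called. The summed microglial markers were 909 to 1485 CPM in these Abca1+/- mice and 657 to 1312 CPM in the Abca1+/+ mice, and their part in the difference was not tested. In *APOE3* TBI mice, with 0.18% of genes called, and *APOE4* sham mice, with 0.99% called, 0 members were called by edgeR and by DESeq2 (2 and 4 at an unadjusted p under 0.05).

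Whether the effects depended on one another was tested by interactions. For injury by isoform 0 members were called (0 at an unadjusted p under 0.05), against 0.00659% of all genes. For injury by *Abca1* copies 0 were called (2 at an unadjusted p under 0.05, *Mvk* and *Ebp*), against 0% of all genes, and for the 3-way term 0 (0 at an unadjusted p under 0.05), also against 0% (all edgeR; DESeq2 called 0 in each). For isoform by *Abca1* copies edgeR called 0 members (5 at an unadjusted p under 0.05), against 0.0659% of all genes. *Srebf2* came nearest, with a log2 difference of -0.21 (standard error 0.05, adjusted p = 0.0871, edgeR), which DESeq2 called (adjusted p = 0.0315).

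Between females and males 0 members were called, against 10.1% of all genes, with 4 at an unadjusted p under 0.05 (edgeR; 0 with DESeq2). *Srebf2* was nearest, lower in females by a log2 value of -0.07 (standard error 0.03, adjusted p = 0.0511). It passed without the E4/Abca1+/- TBI library that had the lowest hippocampal marker sum, 305 CPM (adjusted p = 0.0245), and without the E4/Abca1+/- sham library with the highest microglial sum (adjusted p = 0.0301, edgeR).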

How the data were processed

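RNA of the slice through the site of surgery was sequenced in 58 mice, sham and TBI. The authors deposited a table of raw counts of reads per gene for 15171 genes. The submitters' processing notes name Subread 1.5.0, featureCounts, edgeR and mm10. Whether strand was used is not given in the sources used here. The table held 2 blank lines, which were dropped. No mouse was left out of the main fits, and of 183 pairs of mice within groups 0 had identical counts.

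Counts were fitted with edgeR 4.0.16 (TMM factors, filterByExpr, quasi-likelihood test) in R 4.3.3, with 8 group means over all mice for averaged effects, interactions and sex, and with the mice compared alone for single genotypes or settings. The filter removed 0 to 1157 genes. P-values were adjusted by Benjamini-Hochberg over all genes tested, with 0.05 as the threshold. They set a difference between groups against the spread among mice. CPM used TMM library sizes, and group values give the lowest, median and highest mouse. Correlations used log2(CPM + 1). Alternatives were DESeq2 1.42.0, its size factors, other filters, sex as a covariate, 1 sex alone, thinning to the lowest total, a single fit and leaving out either of a pair of libraries. Thinning was a single random draw of the counts. The fits were tested on simulated data.

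The members and all lists (pathway genes and markers of oligodendrocytes and their precursors, astrocytes, neurons, microglia, endothelium, meninges and fibroblasts, choroid plexus, lymphocytes and monocytes, hippocampus, cortical layers, thalamus and striatum) were chosen with earlier results of these data known. Full values were given for at most 14 members past the threshold after TBI with 1 direction in all 4 genotypes, by p, and at most 6 in each other comparison, and at most 5 other pathway genes in each direction. Of these pathway genes, 2 that the rule names are not reported here. Promoters and gene coordinates came from RefSeq (GRCm38.p6).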

Additional observations from a re-analysis of the deposited data

Results flagged for a closer look

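For 22 members, the highest or lowest mouse of each group was compared with its nearest neighbour. Of 176 groups tested 7 had a mouse far from the others by Dixon's criterion, which chance gives in about 5% of groups. *Srebf1* reached 145 CPM in E3/Abca1+/+ TBI replicate 8, against 106 in the next mouse. *Idi1* was 3.94 CPM in E3/Abca1+/- TBI replicate 4 (next 3.26), and *Scap* was 119 CPM in the same mouse (next 112). *Scap* was also 96 CPM in E3/Abca1+/+ sham replicate 5 (next 107) and 125 CPM in E4/Abca1+/+ TBI replicate 2 (next 111). *Mvk* was 13 CPM in E4/Abca1+/- sham replicate 3 (next 16.6), and *Ebp* was 20.1 CPM in E4/Abca1+/- sham replicate 2 (next 17.3), the library with the highest microglial marker sum.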

How the results depend on the processing

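Averaged over genotypes, 26 members were lower after TBI. Thinning to the lowest total gave 23, and females and males alone gave 22 each. In females alone *Mvk*, *Nsdhl* and *Dhcr7* and in males alone *Acat2*, *Pmvk* and *Acaca* lost the call, besides *Tm7sf2* in both. *Scd2*, not called over all mice, was called higher in females alone (adjusted p = 0.0382, edgeR). The fits of 1 sex held fewer mice, and whether the injury effect differed by sex was not tested. Between isoforms, the 3 members lower in *APOE4* became 5 with at least 10 counts in every mouse and 1 after thinning. *Cyp46a1* was also called lower with DESeq2 (adjusted p = 0.0424) and with sex as a covariate (0.0397, edgeR). The same held without the E4/Abca1+/- TBI library with the lowest hippocampal markers (0.017, edgeR). The 3 members higher in *APOE4* lost *Insig2* after thinning. In Abca1+/- mice the 5 members higher became 1 after thinning. *Cyp46a1* was also called higher with at least 10 counts in every mouse (adjusted p = 0.0468) and with sex as a covariate (0.0411, both edgeR). The 0 lower became 1 with DESeq2, with its size factors, after thinning and without the E4/Abca1+/- sham library with the highest microglial markers. It was *Soat1* in each. For isoform by *Abca1* copies 0 became 1 with DESeq2, and for sex 0 became 1 without that library and without the E4/Abca1+/- TBI library with the lowest hippocampal markers. Between isoforms in Abca1+/- sham mice 2 became 5 with DESeq2 and 0 after thinning or without that sham library, and in Abca1+/- TBI mice 1 became 0 after thinning and 2 in a single fit over 58 mice. Between *Abca1* copies in *APOE3* sham mice 1 became 3 with DESeq2 and 0 with its size factors, without a filter and after thinning, and in *APOE4* TBI mice 1 became 0 after thinning. Thinning left fewer counts in every library but the shallowest, and the cause of the other changes was not tested. Log2 fold changes after TBI changed sign for members that were not called over all mice: *Ebp* -0.0245 in males, *Scap* 0.0196 after thinning, *Cyp46a1* -0.0022 after thinning and -0.0058 in females, *Scd2* -0.0285 in males and *Fads1* 0.0173 in females. The Abca1+/- libraries were the deeper ones, which limits the comparison of *Abca1* copies. No paired analysis was possible because the labels give no number that pairs mice across groups.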
